A study of Caenorhabditis elegans with 2 samples.

Results

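Body wall muscle genes were examined for binding regions of FKH-6, a forkhead transcription factor, in Caenorhabditis elegans. The set comprised 46 named genes for sarcomere proteins, muscle attachments, a muscle regulator and calcium channels, chosen by gene name, and all 46 were found among 19973 nuclear protein-coding genes. They were 11 thick filament genes, 16 thin filament genes, 16 attachment genes and 3 genes for a regulator and channels. Regions came from chromatin immunoprecipitation with sequencing (ChIP-seq) with an antibody against GFP. The animals were hermaphrodites of strain OP78, genotype unc-119(ed3) III with the transgene wgIs78, whose FKH-6 protein ends in a GFP-FLAG tag at its C-terminus. Late embryos were taken 5.5 hours after synchronization by bleaching, as 2 biological replicates of 1 group. Whole animals were used, so a region at a muscle gene can come from any cell type, and neither expression nor muscle cells were measured. The labels do not say where the transgene is expressed, and all animals carried it. The control experiment named in the labels was not analysed here.

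Body wall muscle of the worm works through sarcomeres in which myosin thick filaments slide along actin thin filaments. Thin filaments are anchored at dense bodies and thick filaments at M-lines, and both connect through integrins to the basement membrane outside the cell. Many of these genes are named for mutants that move poorly (unc) or are paralysed and arrested as embryos (pat), and hlh-1 encodes the worm relative of MyoD. In the embryo the muscle cells are born and build their first sarcomeres before hatching.

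Of the 46 muscle genes, 7 had a reproducible FKH-6-GFP region, 15.2% against 4.80% of all protein-coding genes. A region was given to a gene when its summit lay inside the gene or within 2000 bp of its 5′ end on either side. The reproducible list is the authors' thresholded list of 767 regions, 746 of them nuclear. The 7 genes were unc-60, act-1 and act-4 of the thin filament, unc-112, unc-97 and dim-1 of the attachments, and unc-54 of the thick filament. Each had 1 reproducible region. The genes were chosen with earlier results of these data known, so no test of the set was made.

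The DNA at 6 of these summits is shown because it is the sequence at the centre of the listed regions at muscle genes. Each line gives 101 bases of the ce11 plus strand, 5′ to 3′, centred on the summit, with a searched motif in capitals where one was present. The windows lie at chrV:11080489-11080589 (act-1), chrX:4962427-4962527 (act-4), chrV:1474730-1474830 (unc-60), chrV:14697078-14697178 (unc-112), chrX:5591953-5592053 (unc-97) and chrX:8053066-8053166 (dim-1).
act-1: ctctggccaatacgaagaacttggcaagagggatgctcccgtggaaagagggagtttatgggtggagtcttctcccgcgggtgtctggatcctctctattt
act-4: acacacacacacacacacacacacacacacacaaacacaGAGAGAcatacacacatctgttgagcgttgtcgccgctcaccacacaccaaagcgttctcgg
unc-60: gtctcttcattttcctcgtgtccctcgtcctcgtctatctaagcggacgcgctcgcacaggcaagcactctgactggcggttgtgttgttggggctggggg
unc-112: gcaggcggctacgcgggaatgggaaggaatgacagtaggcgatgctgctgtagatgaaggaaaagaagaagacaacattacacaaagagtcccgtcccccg
unc-97: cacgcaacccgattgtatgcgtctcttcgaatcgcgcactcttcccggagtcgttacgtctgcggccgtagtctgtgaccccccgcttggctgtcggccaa
dim-1: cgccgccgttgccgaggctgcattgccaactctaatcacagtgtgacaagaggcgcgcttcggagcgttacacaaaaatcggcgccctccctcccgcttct
The only searched motif in these windows was GAGAGA in the act-4 window, next to a run of alternating A and C. The motifs searched on both strands were the forkhead forms GTAAACA and TAAACA (the first contains the second), the E-box CAGCTG that HLH-1 is known to bind, GAGAGA and GGGCGG.

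All 7 summit windows had more G and C than A and T. Over them, unc-54 included, GC content averaged 57.1%, from 51.5% at act-4 to 61.4% at unc-97. The 746 nuclear reproducible windows averaged 50.3% and the 26141 nuclear windows of the pooled list averaged 42.6%. TAAACA was in 0 of the 7 windows, against 3.62% of all reproducible windows and 5.23% of pooled windows, and 7 windows are too few to show a difference from shares of this size. GAGAGA was in 1 of 7, against 21.4% and 10.8%. Over 234 distinct pooled summits at the 46 genes, GTAAACA was in 0, against 1.03% of all pooled windows. At a share that low, few or none would be found among 234. TAAACA was in 2.56% (5.23% of all pooled windows) and CAGCTG in 4.27% (2.84%). GAGAGA was in 17.5% (10.8%) and GGGCGG in 5.56% (4.09%). In promoters, taken as 250 bases before to 50 after the gene's 5′ end, GAGAGA was present at 17 of 46 muscle genes (37.0%) and at 21.8% of all genes, GGGCGG at 9 (19.6%) and 7.87%, TAAACA at 9 (19.6%) and 24.9%, GTAAACA at 2 (4.35%) and 4.78%, and CAGCTG at 0 and 5.55%. The muscle promoters averaged 40.8% GC and all promoters 34.8%, and the part of GC content in these shares was not tested.

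**Figure D1:**
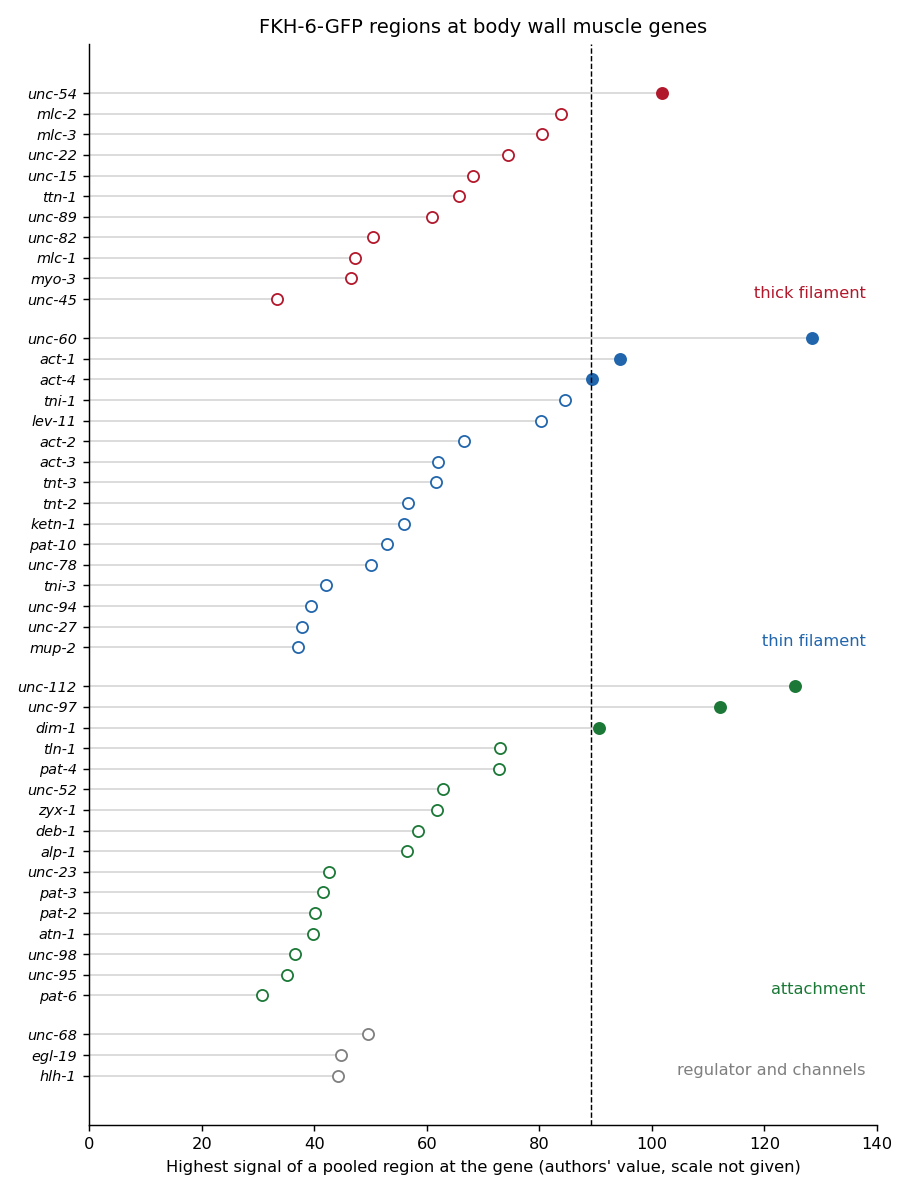
Highest signal of a pooled region at each of the 46 muscle genes, grouped by role. The x axis is the authors' signal value, filled circles are genes with a reproducible region, and the dashed line marks the lowest signal of the reproducible list, 89.1. The 7 filled circles lie from 89.4 to 128, and tni-1, at 84.5, is the highest open one.

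Signal was below the median of the nuclear reproducible regions at 5 of the 7 muscle regions, too few to show a shift. Signal is the authors' value per region, on a scale the sources used here do not give, and only ranks regions within a list. The 7 regions ranked from 295 to 759 of 767, and each had the same rank in the pooled list. The reproducible list thus followed pooled signal down to rank 759, and unc-97 was on it without a matched region in replicate 1. The median signal of the 7 was 101.8, against 114.8 over the 746 nuclear regions. Of the 7, 2, at unc-60 and unc-112, were above the nuclear median. The highest nuclear signal in the list was 874. The values of act-4 (89.4) and dim-1 (90.7) were just above the lowest value of the list (89.1), so the count of 7 depends on where that threshold was set.

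unc-60 had the highest signal among the muscle genes. It encodes actin-depolymerizing factor (cofilin) proteins that turn over thin filaments. Its region, chrV:1474550-1475009, had its summit 306 bp upstream of the 5′ end. The signal was 128 in the pooled list (rank 295 of 26164), 60.9 in replicate 1 (rank 275 of 19624) and 68.7 in replicate 2 (rank 375 of 26209). Both replicates thus placed it among their 767 highest-signal regions, with summits within 3 bp of the pooled one. The 5′ end of the neighbouring gene F53E2.2 lay at the same distance on the other side, so the region cannot be given to unc-60 alone. The other 2 pooled regions of unc-60 lay inside the gene and were weak.

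act-1 and act-4, which encode actins, were the other thin filament genes with reproducible regions, and act-2 and act-3 had none. act-1, act-2 and act-3 lie in a cluster of 10.7 kb on chromosome V, and act-4 is on X. At act-1 the summit lay 513 bp upstream in chrV:11080309-11080768, with a signal of 94.3 in the pooled list, 45.6 in replicate 1 (rank 609) and 44.99 in replicate 2 (rank 1188). This summit was nearer to an annotated non-coding gene, T04C12.16, whose start was 85 bp away, and lay inside it and inside T04C12.25. The 9 pooled summits at the cluster included one of signal 66.5 between act-1 and act-2, 1369 bp upstream of act-2. The highest at act-3 had a signal of 62.0. The nearest reproducible summit was 2385 bp from the 5′ end of act-2 and 6041 bp from that of act-3.

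At act-4 the reproducible region lay inside the gene. Its summit, in chrX:4962247-4962706, was in an intron 1856 bp downstream of the 5′ end, and 398 bp upstream of the start of a second annotated transcript. The signal was 89.4 in the pooled list, 44.97 in replicate 1 (rank 647) and 50.6 in replicate 2 (rank 823). act-4 also had 6 weaker pooled regions along its 3.79 kb. Genes of near-identical sequence can share or lose reads. Of the 32-base words in act-1, 87.8% occurred more than once in the genome, as did 38.2% in act-2, 41.9% in act-3 and 6.75% in act-4. The median over the 46 genes was 0.123%, and 11 genes were above 5%. Besides the actins these were mlc-2 (18.7%), unc-45 (15.1%), ttn-1 (14.7%), unc-95 (13.4%), tln-1 (11.4%), mlc-1 (9.30%) and zyx-1 (5.94%), whose region counts and signals carry the same limit. In the reproducible regions themselves the share was 0% at act-1 and 3.26% at act-4. Signal over the actin coding sequence is uncertain. The aligner was not given, and the effect of repeated sequence on any of these regions was not tested.

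Among the other thin filament genes, tni-1 and lev-11 came closest to the threshold. tni-1, a troponin I gene, had a pooled region 1909 bp upstream with a signal of 84.5. It ranked 741 in replicate 1 and 1730 in replicate 2, with signals of 43.4 and 40.4. lev-11, the tropomyosin gene, had its highest pooled signal, 80.4, in an intron 3015 bp from the 5′ end, and a second of 67.4 at 5252 bp, which was 396 bp upstream of another annotated transcript start. In replicate 2 a lev-11 region at 5385 bp ranked 595 (signal 56.7), while the best in replicate 1, at 3020 bp, ranked 1116 (signal 38.7). The troponin T genes tnt-3 (61.6, 3 regions), tnt-2 (56.6, 2 regions) and mup-2 (37.1, 2 regions) had lower highest pooled signals. So did the troponin I genes tni-3 (42.1, 2 regions) and unc-27 (37.8, 1 region) and the troponin C gene pat-10 (52.9, 1 region). The highest pooled signal was 56.0 among 11 regions at ketn-1, which encodes the thin filament protein kettin. It was 50.2 among 2 regions at unc-78, whose product aids actin disassembly, and 39.4 among 4 at unc-94, which encodes tropomodulin.

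**Figure D2:**
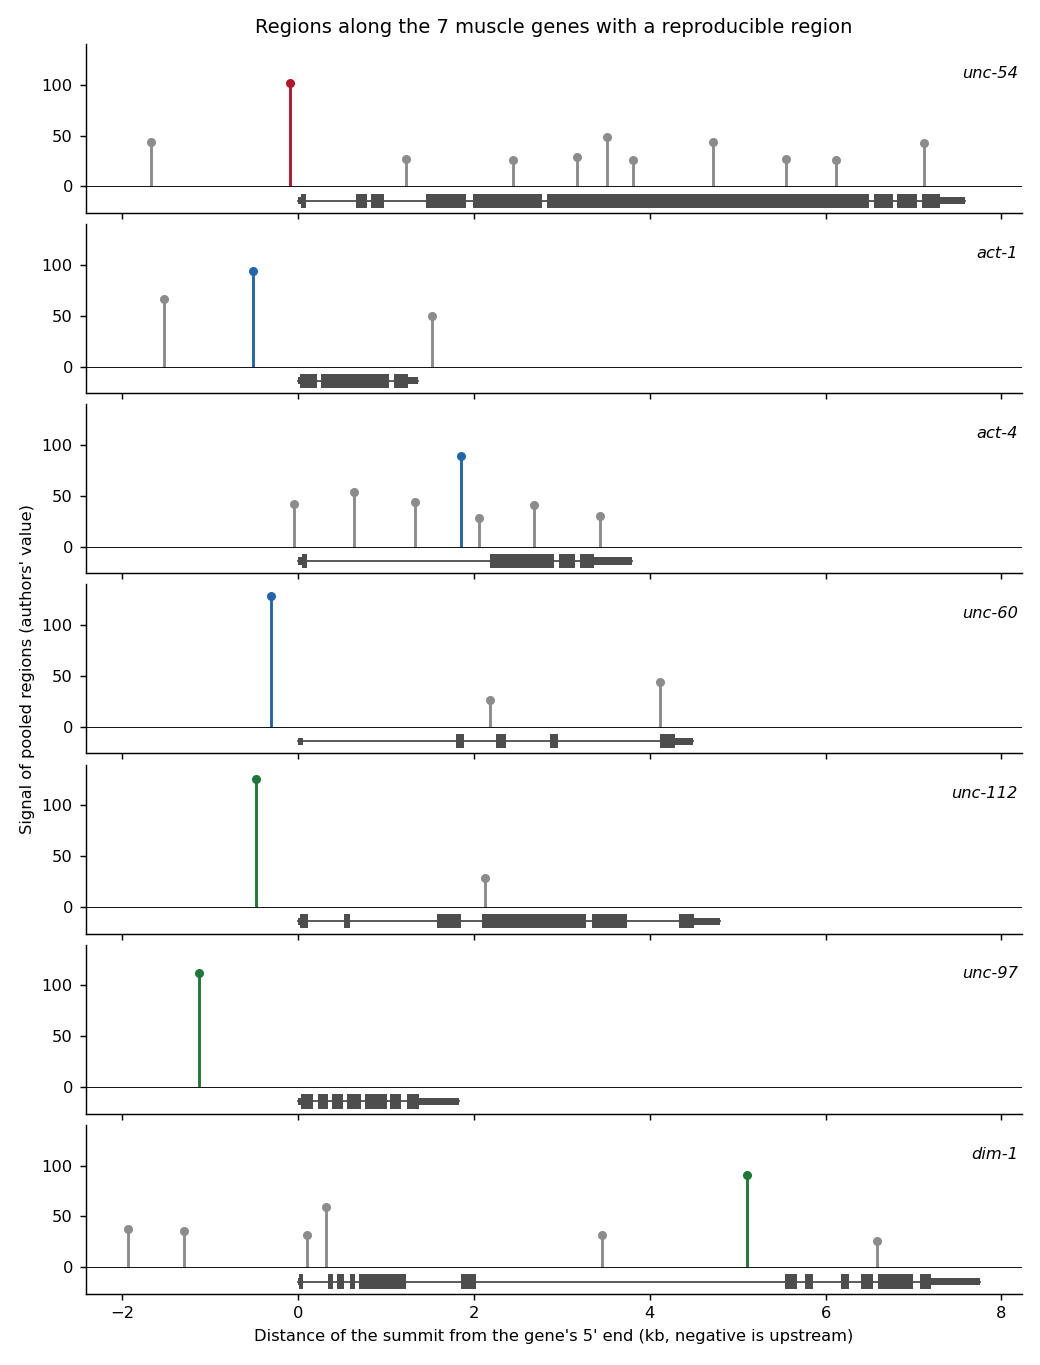
Pooled regions along the 7 muscle genes with a reproducible region. The x axis is the distance of the summit from the gene's 5′ end in kb, stem height is the authors' signal, coloured stems are reproducible regions and grey stems are other pooled regions; boxes under each axis are exons, taller where coding. In 5 genes the coloured stem is upstream of the gene, and in act-4 and dim-1 it is inside.

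The attachment genes with reproducible regions were unc-112, unc-97 and dim-1. unc-112 encodes kindlin, which links integrin to the proteins of dense bodies and M-lines. Its summit lay 474 bp upstream in chrV:14696898-14697357, with a signal of 125 in the pooled list, 47.7 in replicate 1 (rank 537) and 77.2 in replicate 2 (rank 265). It was among the 767 highest regions of both replicates. The 5′ end of set-5, a gene on the other side, was 1838 bp from the summit.

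unc-97 rested mainly on replicate 2. It encodes the LIM-domain protein PINCH, a partner of integrin-linked kinase. Its only pooled region, chrX:5591773-5592232, had its summit 1130 bp upstream and a signal of 112.1. Replicate 2 had a region there with a signal of 85.0, rank 208, its summit 30 bp from the pooled one. In replicate 1 the strongest region nearby had a signal of 29.8, rank 2976, with its summit 142 bp away, and another, 102 bp away, had a signal of 17.3 and rank 16130. Neither lay within the 100 bp used here to match summits between lists, so unc-97 was the single one of the 7 with no matched region in replicate 1.

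dim-1, which encodes an immunoglobulin-domain protein found near dense bodies, had its region within the gene. The summit, in chrX:8052886-8053345, lay in an intron 5104 bp from the 5′ end and 436 bp upstream of a second annotated transcript start. A non-coding gene, C18A11.12, started 38 bp away. The signal was 90.7 in the pooled list, 44.5 in replicate 1 (rank 668) and 43.8 in replicate 2 (rank 1305).

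The integrin genes and their kinase and parvin partners had no reproducible region. Only 4.80% of all protein-coding genes had one, so this cannot be told from the background. The highest pooled signal was 40.1 among 4 regions at pat-2 (alpha integrin) and 41.5 among 3 at pat-3 (beta integrin). It was 72.7 among 3 at pat-4 (integrin-linked kinase) and 30.7 at the single region of pat-6 (parvin), the lowest of the 46 genes. The highest pat-3 region, 1891 bp upstream, lay nearer to the 5′ end of ccdc-47, at 927 bp. The pat-4 region, 1623 bp upstream, lay nearer to the 5′ end of C29F9.8, at 686 bp. It ranked 1014 in replicate 2 and 8767 in replicate 1. Other attachment genes were led by tln-1 (talin), with 18 pooled regions and a highest signal of 73.0 in a coding exon 14971 bp from the 5′ end, followed by unc-52 (perlecan, 62.9, 25 regions), zyx-1 (zyxin, 61.9, 8 regions), deb-1 (vinculin, 58.4, 7 regions) and alp-1 (a PDZ-LIM protein, 56.5, 2 regions). The highest unc-52 region lay in a coding exon 19547 bp from the 5′ end, as did that of replicate 2 (41.4, at 19534 bp), while in replicate 1 the highest was elsewhere in the gene (40.4, at 27780 bp). The highest zyx-1 region lay 7 bp from an internal transcript start, 10106 bp from the 5′ end. In replicate 2 the highest was there too (43.4, at 10118 bp), and in replicate 1 it was at 3895 bp (32.6). For tln-1 the lists also differed in place, with rank 456 in replicate 2 (signal 62.2, at 16607 bp) and rank 839 in replicate 1 (signal 41.9, at 9317 bp). The highest signals at unc-23, a BAG-domain gene (42.6, 2 regions), atn-1, alpha-actinin (39.7, 2 regions), unc-98, a zinc finger M-line protein (36.6, 1 region), and unc-95, a LIM-domain dense body protein (35.2, 4 regions), were near or under 42.0, the median of the highest signal over all protein-coding genes with a pooled region. The unc-98 region lay 346 bp from the 5′ end of unc-98 and 337 bp from that of F08C6.18.

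Thick filament genes had 1 reproducible region among 11 genes (9.09%, against 4.80% of all protein-coding genes), at unc-54. unc-54 encodes the major myosin heavy chain of body wall muscle. The gene is on chromosome I, 14855901 to 14863482, on the minus strand, and its summit lay 96 bp upstream of the 5′ end, the closest to a gene start of the 7. The signal was 101.8 in the pooled list (rank 541), 55.7 in replicate 1 (rank 344) and 45.03 in replicate 2 (rank 1186), so it was among the 767 highest regions of replicate 1 alone. The window around the summit had a GC content of 60.4%, and no non-coding start lay within 30 kb of it (the nearest was 30356 bp away). unc-54 also had 10 weaker pooled regions, and its 11 in all exceeded the 95th percentile, 8, of the 699 genes of 7.5 to 10 kb.

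The light chain genes mlc-2 and mlc-3 were next among the thick filament genes. mlc-2, a regulatory light chain gene, had a pooled region 290 bp upstream with a signal of 83.9, with 36.8 in replicate 1 and 45.7 in replicate 2. The start of the non-coding gene C36E6.11 lay 209 bp from its summit. mlc-3, the essential light chain gene, had one 29 bp upstream with a signal of 80.4, with 40.2 in replicate 1 and 39.5 in replicate 2. Both had a −log10 q-value above 2 in the pooled list (2.10 and 2.05) but were outside the reproducible list. mlc-1, the other regulatory light chain gene, had a highest signal of 47.2 in 2 regions, and its 5′ end is 2624 bp from that of mlc-2. The second myosin heavy chain gene, myo-3, had 3 pooled regions with a highest signal of 46.6, in a coding exon 6201 bp from its 5′ end. unc-22 (twitchin) reached 74.5 in an intron 378 bp from its 5′ end, with 27.02 in replicate 1 and 47.8 in replicate 2. That summit lay nearer to the 5′ end of ZK617.26, at 330 bp, and 29 bp from the start of the non-coding gene ZK617.11. unc-15 (paramyosin) reached 68.3 in a coding exon, with 31.3 in replicate 1 and 34.0 in replicate 2. The highest signals were 65.7 at ttn-1 (titin, 14 regions), 60.9 at unc-89 (obscurin, 19 regions) and 50.5 at unc-82 (a kinase of filament organization, 3 regions). unc-45, the myosin chaperone gene, had a single region of signal 33.4, rank 14580.

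The regulator and channel genes had 0 reproducible regions among 3, beside 4.80% of all protein-coding genes with one. With 3 genes this cannot be told from the background. hlh-1 had a pooled region 96 bp upstream with a signal of 44.3, which ranked 6977 in that list, and its highest signals were 18.6 in replicate 1, 1001 bp upstream, and 33.3 in replicate 2, 22 bp upstream. egl-19, the L-type calcium channel gene, reached 44.8 in an intron 998 bp from its 5′ end. Its highest regions in the replicates lay elsewhere, at 8878 bp in replicate 1 (25.6) and 1274 bp in replicate 2 (23.7). unc-68, the ryanodine receptor gene, reached 49.6 at a summit 1419 bp upstream, which was 29 bp from the start of the non-coding gene Y57E12B.8. Replicate 2 had its highest unc-68 region there (25.01), and replicate 1 at 26240 bp inside the gene (33.3).

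**Figure D3:**
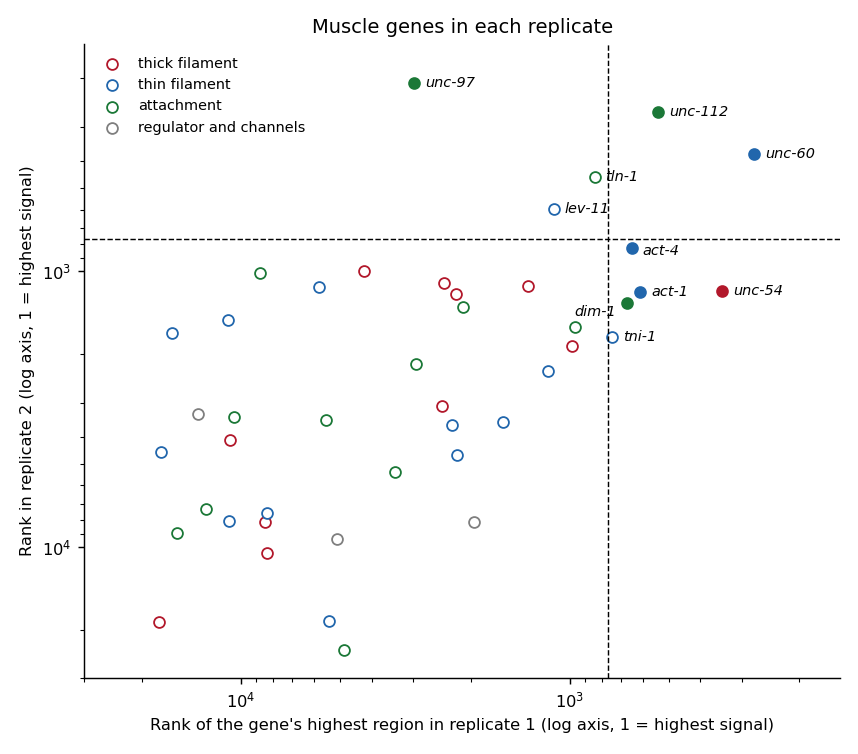
Rank of each muscle gene's highest-signal region in replicate 1 (x axis) and replicate 2 (y axis), both log axes with high signal towards the right and the top, for the 44 genes with a region in both. Filled circles have a reproducible region in the authors' list, and dashed lines mark rank 767. Only unc-60 and unc-112 lie past both lines.

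The replicates shared few muscle genes at the top of their lists. Taking the 767 regions of highest signal per replicate, replicate 1 had a region at 7 of 46 muscle genes (15.2%, against 4.70% of all protein-coding genes) and replicate 2 at 5 (10.9%, against 4.78%). Both had one at 2 genes, unc-60 and unc-112, 4.35% against 3.08% of all genes, which is close to the background. unc-54, act-1, act-4, tni-1 and dim-1 were in replicate 1 alone, and lev-11, unc-97 and tln-1 in replicate 2 alone. Of the 7 reproducible muscle regions, 2 were in the top set of both replicates and 0 in neither. Over the 746 nuclear regions the shares were 56.7% and 4.42%. Across the 44 muscle genes with a region in both full lists, the highest signals in replicates 1 and 2 gave Spearman's rho = 0.56, beside 0.54 for 9883 protein-coding genes. These are correlations across genes that share libraries, and genes are not independent replicates. pat-6 had no region in replicate 1, and unc-98 had none in replicate 2.

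The share of muscle genes with a reproducible region was above that of all genes up to 10 kb in length, and 0 beyond. The median length was 5.29 kb for the muscle genes and 2.03 kb for all protein-coding genes, and a longer gene offers more room for a summit. Of the 22 muscle genes of up to 5 kb, 5 had a reproducible region, 22.7% against 3.95% of all genes of that length. From 5 to 10 kb the count was 2 of 12, 16.7% against 8.32%, and over 10 kb it was 0 of 12 against 11.1%. The giant genes ttn-1, unc-89, unc-22 and unc-52 were all among those with none. With so few genes in a class, 1 gene moves these shares by several points.

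**Figure D4:**
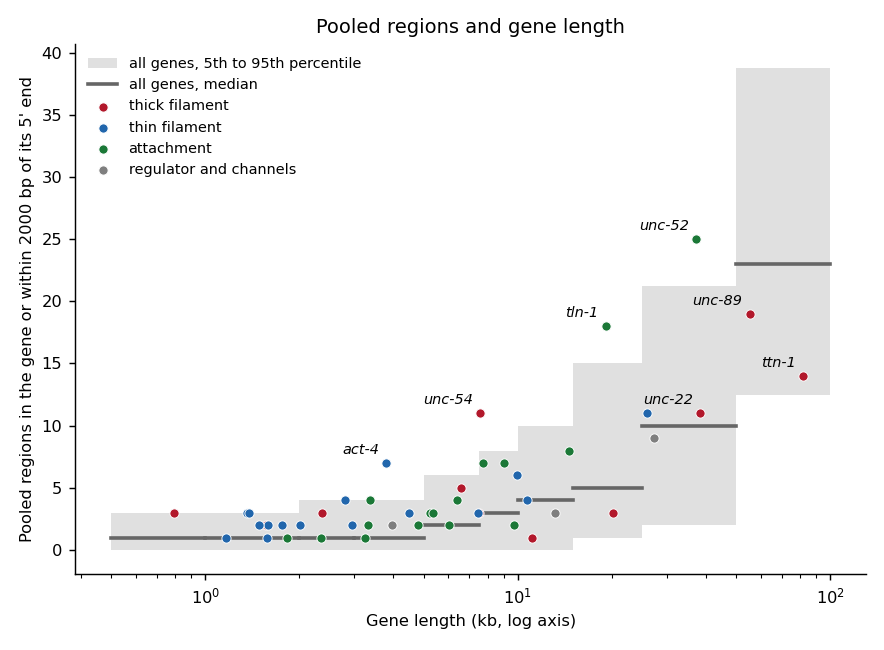
Number of pooled regions in each muscle gene or within 2000 bp of its 5′ end (points, coloured by role) against gene length on a log axis. Grey bands span the 5th to 95th percentile and grey bars the median of all protein-coding genes in each length class; the longest class holds 6 genes. unc-54, act-4, unc-52 and tln-1 lie above the bands.

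In the permissive pooled list, all 46 muscle genes had a region, against 65.6% of all protein-coding genes. The share of all genes rose with length, from 61.3% up to 5 kb to 85.7% from 5 to 10 kb and 93.3% over 10 kb. The pooled list was deposited as input to the reproducibility step and includes background, and 1098 of its 26164 regions had a −log10 q-value of at least 2. The median highest signal was 57.5 over the 46 genes and 42.0 over all genes with a region, and 36 muscle genes were above the latter. It was 65.7 for thick filament, 59.1 for thin filament, 57.4 for attachment and 44.8 for regulator and channel genes. The median gene lengths of these classes, in the same order, were 7.58, 2.41, 5.70 and 13.2 kb, and the classes were not matched for length. Within length classes the muscle and the general medians were 54.7 and 40.2 up to 5 kb, 59.99 and 46.6 from 5 to 10 kb, and 58.5 and 54.5 over 10 kb. A pooled summit lay within 500 bp of the 5′ end at 30 muscle genes, or 65.2%, against 29.6% of all genes. The 16 muscle genes without one included act-1, unc-97, tni-1, lev-11, tln-1, pat-2 and pat-3.

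The number of pooled regions per muscle gene ran from 1 to 25. The highest numbers were at unc-52 (25), unc-89 (19), tln-1 (18) and ttn-1 (14), which together held 32.3% of the pooled regions at the 46 genes. Within length classes, 31 of the 46 genes (67.4%) had more regions than the median gene, against 34.0% of all protein-coding genes. The 95th percentile was exceeded by 4 (8.70%, against 3.46%), namely unc-54 (11), act-4 (7), unc-52 (25) and tln-1 (18). ttn-1, the longest at 81.7 kb, had 0.167 regions per kb against a median of 0.412 over the 46 genes. The median was 0.250 over all protein-coding genes and 0.277 over those longer than 10 kb. Length here was that of the gene together with the 2000 bp on either side of its 5′ end. A single pooled region was found at unc-45, unc-27, pat-10, unc-97, pat-6 and unc-98.

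Coding exons held a larger share of the pooled regions at muscle genes than at all genes. They held 93 of the regions, or 39.6%, against 22.9% over all protein-coding genes, and sequence upstream of the 5′ end held 22.98% against 39.0%. Without unc-52, unc-89, tln-1 and ttn-1 the coding share was 30.8%. The muscle genes were also longer (median 5.29 kb against 2.03 kb), while the upstream window was 2000 bp at every gene. These shares were not matched for gene length. The median signal was 35.6 in coding exons, 33.8 in introns and 42.3 upstream, beside 34.1, 34.2 and 36.7 over all genes. The highest coding-exon signal was 73.0, at tln-1. That was under the lowest value of the reproducible list (89.1), so none of the coding regions was in that list. For the highest region of each gene the order differed. It was upstream at 26 of 46 genes (56.5%, against 48.9% of all genes with a region) and in a coding exon at 6 (13.0%, against 19.5%).

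Non-coding genes were near some of these summits. The term covers all annotated nuclear genes that are not protein-coding, pseudogenes and piRNA genes included. Of the 7 reproducible muscle regions, 2, at act-1 and dim-1, had a non-coding start within 500 bp and nearer than any protein-coding start, against 42.4% of the nuclear reproducible regions. Both neighbours are in the annotation's class of other ncRNA, and none of the 7 had a tRNA, snoRNA or snRNA gene as such a neighbour. For the highest pooled region of each muscle gene the count was 15 of 46 (32.6%), against 13.2% of protein-coding genes with a region. Among these were mlc-2, unc-22, unc-89 (the snoRNA gene C24G7.6 at 142 bp), unc-82 (8 bp from B0496.12) and unc-68. The neighbour was a pseudogene at alp-1 (213 bp) and a piRNA gene at deb-1 (359 bp).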

How the data were processed

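FKH-6-GFP ChIP-seq regions from whole late embryos (1 group, 2 biological replicates) were used. The authors deposited region lists for each replicate, for the pooled replicates and for the reproducible set, per the deposited file descriptions. The 4 ce11 lists were used, and the ce10 lists were not, since coordinates were not converted. The signal (column 7) and the −log10 q-value (column 9) are the authors' deposited values. Peak caller, aligner and threshold were not given in the sources used here. Without read counts in these files, depth is unknown. There were 0 columns of other samples.

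Genes came from Ensembl release 115 (WBcel235, which is ce11), and bases from the RefSeq copy of that assembly. Summits are column 2 plus column 10 plus 1. Assignment used 2000 bp and the gene body, on either strand, so a region can count for several genes. Regions matched between lists within 100 bp. A replicate's top set holds as many regions as the reproducible list. Windows at summits were 101 bases. Roles and named genes followed a written rule: genes with a reproducible region in full, the 4 next per role, and the rest by name. The members, lists and motifs were chosen with earlier results of these data known. No test of the set was made. Replicates were compared by rank, without p-values. Assignment was tested on simulated data. Python 3.11.15, NumPy 2.4.6, SciPy 1.17.1 and Matplotlib 3.10.9 were used. Alternatives were other distances, gene body left out, nearest start, non-coding neighbours left out, 2 other thresholds and each replicate alone.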

Additional observations from a re-analysis of the deposited data

How the results depend on the processing

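The count of 7 muscle genes was within 1.5 times its value with summits in the gene or within 500 bp (5 genes), without the gene body (6), with the nearest start (7) and without regions nearer a non-coding start (5). The share of all genes moved to 3.12%, 4.13%, 2.89% and 3.18% there. Within 5000 bp 11 muscle genes were counted, 6 of them attachment genes, against 8.16% of all genes. In the 373 highest-signal nuclear regions there were 2 (unc-60 and unc-112), with 0 thick filament, 1 thin filament and 1 attachment gene, 4.35% against 2.54% of all genes. Taking pooled regions with −log10 q from 2 upwards gave 11 (against 6.67% of all genes), with 3 thick filament and 5 thin filament genes, adding mlc-2, mlc-3, lev-11 and tni-1.

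Each replicate alone gave 5 genes without replicate 1 and 7 without replicate 2, of which 3 and 6 were among the 7 of the reproducible list. Thick filament genes ranged from 0 (without replicate 1, when unc-54 was lost) to 1, thin filament genes from 2 to 4 and attachment genes from 2 to 3, and the share of all genes from 4.70% to 4.78%. The causes were not tested. No paired analysis was possible because there is 1 group. Depth is unknown, so genes with weak regions cannot be called unbound.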
